A study of Drosophila melanogaster with 6 samples.

Results

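The mitochondrial respiratory chain moves electrons from food-derived carriers to oxygen and uses the released energy to make ATP. Complex I takes electrons from NADH and complex II takes them from succinate. Complex III passes them on to cytochrome c, complex IV hands them to oxygen, and complex V, the ATP synthase, lets protons flow back to form ATP. Most subunits are encoded in the nucleus and imported, while the mitochondrial genome encodes a small set of hydrophobic core subunits. Neurons depend heavily on this pathway to pump ions and recycle transmitter.

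The nuclear-encoded genes were chosen by symbol, as those whose names start with ND-, UQCR-, COX, ATPsyn or Sdh. There were 81 such genes among the 16493 genes of the tables, with 40 in complex I, 7 in complex II, 8 in complex III, 11 in complex IV and 15 in complex V. The symbols place each gene. They leave out subunits named otherwise, such as *blw*, *RFeSP* and *Cyt-c1*, which were read as a separate list. They also keep *ND-MLRQ* in complex I, although its mammalian relative is counted as a complex IV subunit. No sequence of these genes is printed.

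Single-cell 3′ RNA libraries were made from dissected brains of flies aged for 10 days. There were 3 libraries from *Appl*- flies (genotype label Appl[d] w[*]) and 3 from Control flies (w1118), each from pooled brains of 20 male and 20 female flies. *Appl* encodes the single fly relative of the amyloid precursor protein, and the Appl[d] allele lacks the central part of the gene. Both genotypes carry a *white* allele, and no genetic background beyond these labels is given, so the effect of the deletion and of other differences between the lines cannot be told apart.

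The libraries held 11282730 to 56384733 UMIs (unique molecular identifiers, 1 per captured transcript). Barcodes with 200 or more genes, and with no more than 10% of their UMIs from mitochondrial genes, were taken as cells. This kept 13266 cells from *Appl*- and 11922 from Control brains, or 37.4% of the barcodes. The mitochondrial limit removed 31.8% to 63.9% of the barcodes of the *Appl*- libraries and 38.7% to 84.7% of those of the Control libraries, with the highest share in Control replicate 1. *Appl* itself had 231 ± 25.9 CPM (UMI counts scaled to a library total of 1000000) in *Appl*- and 2139 ± 137 CPM in Control libraries (SD, n = 3 each), with no overlap, although the position of these 3′ tags relative to the deletion was not examined. Clusters were named from marker genes, and "-like" marks such a name. Of 40 clusters at Leiden resolution 1, 36 were neuron-like (24389 cells) and none met the rule for glia. Cluster 11 (487 cells) had 8 glial markers raised, yet its 10 leading genes included no glial marker, and it was left unnamed. At resolution 2, 1 cluster of 359 cells was glia-like, 301 of them from cluster 11, and all glial values come from that resolution, which was chosen after the clusters had been seen. Its cells held 4950 to 7101 CPM of the 13 glial markers over the 6 libraries, against 221.4 to 418.1 CPM in neuron-like cells. They also kept 7066 to 9892 CPM of the 8 neuronal markers, against 11658 to 15145 CPM in neuron-like cells, and the part of neuronal RNA in the glia-like values was not tested.

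The 81 genes gave 1405669 UMIs in the kept cells. Their share of all gene UMIs was 1.75%, 1.52% and 1.63% in the *Appl*- libraries and 1.89%, 1.45% and 1.70% in the Control libraries, and these ranges overlapped. The Control libraries spanned the full range, so the spread within a genotype was larger than the distance between the genotypes. Complex I gave 32.3% to 35.1% of these UMIs in a library, complex V 29.7% to 31.1%, complex IV 19.4% to 21.1%, complex III 11.2% to 11.8% and complex II 4.21% to 4.56%. The division among complexes thus varied little from library to library. The kit counts transcript ends, so levels of different genes are compared as UMIs with no scaling for length.

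The genes fell into an abundant group and a nearly silent one. Of the 63 genes that are not paralogs of another member or of a respiratory chain gene, 60 had a mean of at least 50 CPM. Complex V and complex IV genes stood highest, with medians of 377 and 442 CPM over their abundant members, against 288 CPM in complex III, 173 CPM in complex II and 165 CPM in complex I. The highest was *ATPsynC*, which encodes the proton-carrying ring of the ATP synthase, at 1106 ± 35.7 CPM in *Appl*- and 1079 ± 151 CPM in Control libraries. *COX6B*, a small peripheral subunit of complex IV, had 675 ± 47.4 and 643 ± 100 CPM in *Appl*- and Control libraries. *ND-MLRQ* had 584 ± 50.3 CPM in *Appl*- and 544 ± 23.5 CPM in Control libraries. *UQCR-Q*, a small complex III subunit, had 413 ± 54.5 CPM in *Appl*- and 409 ± 89.2 CPM in Control libraries. *SdhC*, a membrane anchor of complex II, had 189 ± 12.02 CPM in *Appl*- and 190 ± 32.3 CPM in Control libraries (SD, n = 3 each throughout). None of these 5 differences was larger than the spread between libraries.

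The 3 remaining genes that are not paralogs were scarce. *ND-MNLL*, a small complex I subunit, had 9.56 ± 4.14 CPM in *Appl*- and 13.95 ± 1.82 CPM in Control libraries. *Sdhaf3*, an assembly factor of complex II, had 16.2 ± 0.978 CPM in *Appl*- and 15.3 ± 2.27 CPM in Control libraries. *ND-B8* had 5 UMIs in all.

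The 18 paralogs, whose symbols end in L, L1 or L2, together gave 938 UMIs, or 0.0667% of the UMIs of the 81 genes. *ATPsynCF6L* was the highest at a mean of 3.14 CPM, beside 404 CPM for *ATPsynCF6*. *SdhAL* had 2.29 CPM beside 170 CPM for *SdhA*, *ND-51L1* had 1.41 CPM and *ND-51L2* 0.570 CPM beside 197 CPM for *ND-51*, and *UQCR-11L* had 1.14 CPM beside 394 CPM for *UQCR-11*. *COX7AL* had 0.900 CPM beside 414 CPM for *COX7A*, *COX5BL* had 0.759 CPM beside 320 CPM for *COX5B*, and *COX4L* had 0.172 CPM beside 585 CPM for *COX4*. *ATPsynepsilonL*, a paralog of *sun*, had 0.655 CPM, and *ATPsynbetaL* had 0.0997 CPM beside 713 CPM for *ATPsynbeta*. *ND-49L*, *UQCR-14L* and *ATPsynGL* had 1 UMI each, beside parents at 180 CPM (*ND-49*), 287 CPM (*UQCR-14*) and 535 CPM (*ATPsynG*). *ND-20L*, *ND-24L*, *ND-B14.5AL*, *SdhBL* and *COX6AL* had none, while their parents *ND-20*, *ND-24*, *ND-B14.5A* and *SdhB* stood at 172, 87.2, 138 and 175 CPM, and *levy*, the parent of *COX6AL*, is a respiratory chain gene outside the symbol rule. In brain, the chain was therefore counted almost wholly from the parent genes, although reads shared between near-identical copies cannot be told apart in these counts.

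**Figure D1:**
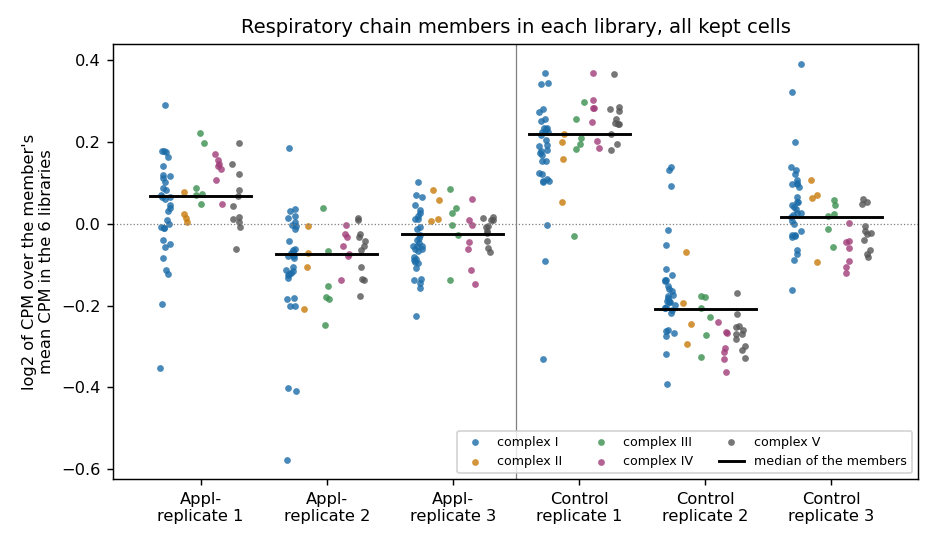
Level of each of the 60 genes with a mean of at least 50 CPM in each of the 6 libraries, over all kept cells, as the log2 of its CPM over its mean CPM in the 6 libraries. Each point is 1 gene coloured by complex, and the black bar is the median of the genes. The genes moved together by library within both genotypes, with Control replicate 1 highest and Control replicate 2 lowest, and most *Appl*- medians lay between them.

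The genes moved together from library to library. Of the 68 genes with enough counts for a test, 52 had their highest CPM in Control replicate 1 and 51 had their lowest in Control replicate 2. The share of mitochondrially encoded UMIs was also highest in Control replicate 1, at 6.80% of gene UMIs, with 4.70% and 4.51% in the other Control libraries and 5.80%, 4.36% and 3.83% in the *Appl*- libraries. It was not lowest in Control replicate 2. Without the mitochondrial UMIs in the total, the 81 genes held 1.85%, 1.59% and 1.69% of UMIs in the *Appl*- libraries and 2.03%, 1.53% and 1.78% in the Control libraries, so the order of the libraries did not change. The barcodes above the mitochondrial limit, which were not used, held lower shares, at 1.43%, 1.08% and 1.10% in *Appl*- and 1.75%, 1.21% and 1.27% in Control libraries. What the libraries share by replicate was not tested.

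The first comparison asked whether the respiratory chain genes differed between *Appl*- and Control brains over all kept cells. Counts were summed per library and tested across all genes with the quasi-likelihood test of edgeR, with p values adjusted by Benjamini-Hochberg over all genes. A call needed an adjusted p below 0.05 together with a log2 difference of at least 0.32 in size. Of 8511 genes tested, 506 (5.95%) were called, 3.02% higher and 2.93% lower in *Appl*-. Of the 68 respiratory chain genes tested, 0 were called higher and 2 (2.94%) lower, which is close to that background. At an unadjusted p below 0.05 there were 4 genes, against 21.3% of all genes, and DESeq2 called 3. Their median log2 difference was -0.03, beside -0.003 for all genes, with 28 above 0 and 40 below. By complex the medians were -0.08 in complex I, 0.03 in complex II, -0.03 in complex III, 0.03 in complex IV and 0.01 in complex V. In summed counts of this kind, fewer cells of a type and less RNA per cell cannot be told apart.

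For most abundant genes the estimated genotype difference was small. Of the 60 genes with a mean of at least 50 CPM, 57 lay within 0.25 of 0 on the log2 scale, and standard errors ran from 0.08 to 0.25. The 3 outside were the complex I genes *ND-39*, *ND-42* and *ND-15*, all lower in *Appl*-. The direction of the median depended on single libraries. It was 0.08 without Control replicate 1 and -0.13 without Control replicate 2.

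**Figure D2:**
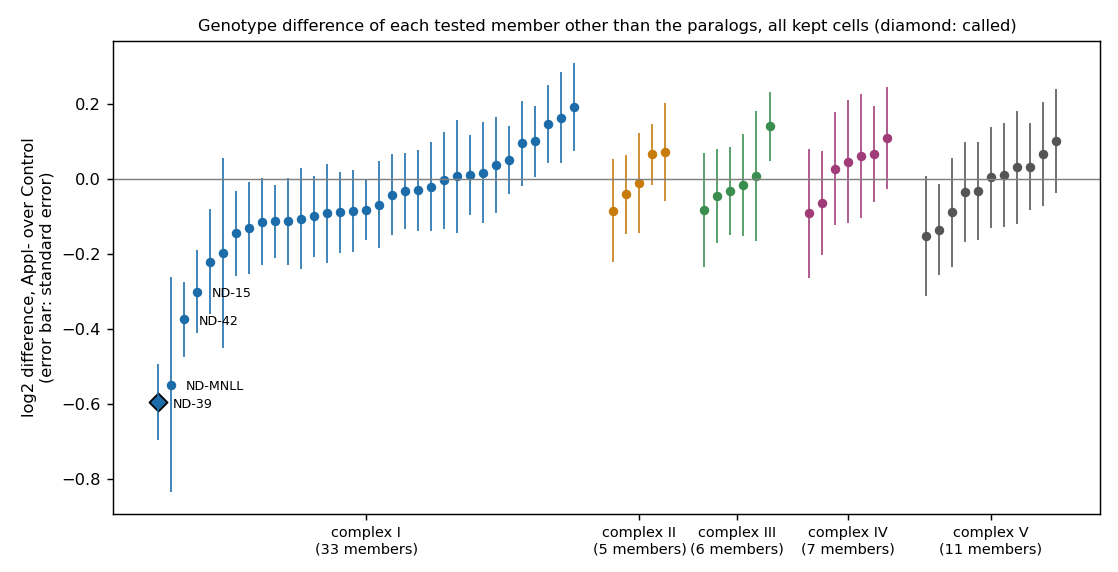
Difference between *Appl*- and Control libraries for the tested genes that are not paralogs, over all kept cells, as log2 of *Appl*- over Control with its standard error, ordered by size within each complex. The diamond marks *ND-39* at -0.60, the only gene called among those drawn; *COX7AL*, a called paralog, is not drawn.

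*ND-39* (FBgn0037001, chromosome arm 3L), an accessory subunit of complex I related to mammalian NDUFA9, was lower in *Appl*- brains. It had 155, 149 and 169 CPM in the *Appl*- libraries, against 255, 211 and 247 CPM in the Control libraries. All 3 *Appl*- values lay below all 3 Control values. The log2 difference was -0.60 with a standard error of 0.10 (edgeR, adjusted p = 0.0207). It kept this direction in every alternative tried, but it was not called when *Appl*- replicate 1, 2 or 3 or Control replicate 3 was left out, with values of -0.55 to -0.65 and adjusted p values of 0.0894, 0.112, 0.067 and 0.054. In the annotation *ND-39* overlaps *ZnT77C*, a zinc transporter gene on the opposite strand. Whether the counting used strand is not given in the sources used here, but *ZnT77C* had only 0, 3 and 3 UMIs in the *Appl*- libraries and 17, 11 and 1 in the Control libraries, too few for a test.

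*COX7AL* (FBgn0037579, chromosome arm 3R), a paralog of the complex IV gene *COX7A*, was the other gene called lower. It had 1, 0 and 1 UMIs in the *Appl*- libraries, against 27, 19 and 26 in the Control libraries. Its tags were thus nearly all from Control cells, at a level far below that of *COX7A*. It could pass the filter on low counts only through the Control libraries, so any call could only be lower. With no such filter it was called as well. The ratio of *Appl*- to Control levels was 0.0268, with an exact 95% interval of 0.00319 to 0.101 that covers counting error only. The fitted log2 difference was -4.94 with a standard error of 0.69 (edgeR, adjusted p = 0.0084), a value that depends on the prior count. Without *Appl*- replicate 1 it was not called (adjusted p = 0.0567). *COX7A* itself had a log2 difference of 0.06 with a standard error of 0.16.

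*ND-42* (FBgn0019957), an accessory complex I subunit related to mammalian NDUFA10, had 86.2, 71.0 and 88.4 CPM in the *Appl*- libraries, against 106, 103 and 108 CPM in the Control libraries. The groups did not overlap, and the log2 difference was -0.38 with a standard error of 0.10. It missed the threshold (edgeR, adjusted p = 0.0773). With the replicate number as a block it was called at the same size (adjusted p = 0.0387), as it was with DESeq2 (adjusted p = 0.0211) and with cells thinned to 500 UMIs (-0.59, adjusted p = 0.0477). *ND-15*, a small complex I subunit, had 169, 179 and 174 CPM in *Appl*- and 246, 187 and 209 CPM in Control libraries, a log2 difference of -0.30 that was not called (edgeR, adjusted p = 0.178). Its annotated span also covers several other genes. *UQCR-11*, a small complex III subunit, went the other way without a call, at 418, 405 and 418 CPM in *Appl*- and 386, 337 and 401 CPM in Control libraries (log2 difference 0.14, adjusted p = 0.456). In all, 5 of the 68 genes had groups that did not overlap, *COX7AL* being the remaining one, against 26.9% of all genes tested.

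The other ends of each complex were small. The largest positive log2 difference in complex I was 0.19 for *ND-B14.7* (117 ± 10.1 CPM in *Appl*- and 102 ± 13.8 CPM in Control libraries). In complex II the extremes were 0.21 for the paralog *SdhAL* and -0.09 for *SdhB*, the iron-sulfur subunit. In complex III the lowest was -0.14 for the paralog *UQCR-11L*. In complex IV the highest was 0.11 for *COX5A*. In complex V the extremes were 0.10 for *ATPsynG* and -0.15 for *ATPsynD*, a subunit of the stalk that holds the enzyme in place. None of these was called.

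Genes that work beside these subunits did not move beyond the threshold either. Of 13 respiratory chain genes named outside the symbol rule, 12 were tested and 0 were called, with 0 at an unadjusted p below 0.05 and a median log2 difference of 0.03. Of 15 tested genes listed for the tricarboxylic acid cycle, which feeds NADH and succinate to the chain, 0 were called and 1 had an unadjusted p below 0.05. The list is wider than the NADH-forming steps, as it also holds the NADP-dependent *Idh* and the pyruvate dehydrogenase gene *Pdha*. The largest differences there were 0.22 for *Nc73EF*, -0.21 for *Fum1* and -0.18 for *Pdha*. The 13 mitochondrially encoded subunit genes had 0 calls and 0 at an unadjusted p below 0.05, with a median log2 difference of -0.23 and 10 of 13 below 0. The largest were -0.55 for *mt:ATPase8*, -0.51 for *mt:ND3* and -0.36 for *mt:ND6*. Cells were filtered on their mitochondrial share, and the part of that limit in these last values was not tested. DESeq2 and edgeR were the tools run, and the counts are those of edgeR. Muscle is rich in respiratory chain transcripts. The summed muscle markers were 337, 337 and 352 CPM in *Appl*- and 313, 314 and 325 CPM in Control libraries. Most of these tags were of *Tm1* (26138 UMIs), followed by *bt* (879 UMIs). Without *Tm1* and *bt*, the sums were 6.47, 5.93 and 7.73 CPM in *Appl*- and 18.8, 14.6 and 6.65 CPM in Control libraries. Of the 5 muscle markers tested 0 were called and 2 had an unadjusted p below 0.05 (*Mf*, a myofilament gene, had a log2 difference of -1.87, *Mlc2* of -0.67 and *bt* of 0.41), and the part of muscle in the results was not tested.

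In neuron-like cells alone the picture was the same, as these cells gave most of the counts. Of 8212 genes tested, 6.11% were called, 3.26% higher and 2.85% lower. Of the 68 respiratory chain genes, 0 were called higher and 2 lower, again *ND-39* and *COX7AL*. *ND-39* had 153, 146 and 167 CPM in *Appl*- neuron-like cells, against 254, 216 and 249 CPM in Control neuron-like cells (log2 difference -0.63, standard error 0.10, edgeR adjusted p = 0.0102). *COX7AL* had a log2 difference of -4.95 with a standard error of 0.65 (edgeR, adjusted p = 0.0032). The limit from the count filter given above for *COX7AL* holds here too. The *ND-39* call was lost without *Appl*- replicate 2 (-0.58, adjusted p = 0.0678) or Control replicate 3 (-0.60, adjusted p = 0.0513). *ND-42* was called with the replicate block (log2 difference -0.40, adjusted p = 0.0208), and not without it (-0.40, adjusted p = 0.0587).

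In the glia-like cells no single respiratory chain gene passed the test. Of 2755 genes tested, 0.907% were called, with 13.7% at an unadjusted p below 0.05. Of 60 respiratory chain genes 0 were called and 5 had an unadjusted p below 0.05 (edgeR), while DESeq2 also called 0. These 5 were *ND-24* (-0.85), *ND-B14.5A* (-0.74), *ND-B16.6* (-0.74), *SdhA* (-0.69) and *ND-SGDH* (-0.60). The median log2 difference of the 60 genes was -0.23, beside -0.02 for all genes, with a median standard error of 0.32 and 49 of 60 genes below 0. This median was -0.005 without Control replicate 1. *ND-39* had 144, 152 and 168 CPM in *Appl*- glia-like cells, against 352, 214 and 177 CPM in Control glia-like cells. The groups did not overlap, and the log2 difference of -0.69, with a standard error of 0.32, was not called (adjusted p = 0.370).

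Whether the genotype difference differed between glia-like and neuron-like cells was tested as an interaction, in a fit that also held the libraries as terms. In that test 0.722% of 8451 genes had a called positive and 1.01% a called negative interaction, with 8.51% at an unadjusted p below 0.05. Of 66 respiratory chain genes 0 were called by edgeR and 4 had an unadjusted p below 0.05. These 4 were *ND-75* (-0.82), *ND-B14.5A* (-0.75), *SdhA* (-0.74) and *ND-B14* (-0.73), with adjusted p values of 0.460, 0.496, 0.445 and 0.428.

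The clusters that had 20 or more cells in each of the 6 libraries were tested one by one, 24 of them neuron-like and 1 the unnamed cluster 11. Over these 25 clusters, 9.68% of 7209 genes were called in at least 1 cluster, 5.45% higher and 4.51% lower. Of 63 respiratory chain genes tested, 0 were called higher and 2 (*ND-39* and *UQCR-C1*) lower. *ND-39* was below 0 in 24 of 25 clusters, with a median log2 difference of -0.56, and in 14 clusters the highest *Appl*- value lay below the lowest Control value. The clusters come from the same 6 libraries and are not separate replicates. Over all cells, the groups did not overlap for 26.9% of all genes tested. *ND-39* was called in 5 clusters.

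The largest *ND-39* differences were in the Kenyon cell-like clusters, the intrinsic neurons of the mushroom body, which serve olfactory memory. In cluster 6 it had 106, 86.9 and 94.0 CPM in *Appl*- and 214, 198 and 218 CPM in Control libraries (log2 difference -1.15, standard error 0.15, edgeR adjusted p = 3.8e-05). In cluster 9, also Kenyon cell-like, it had 80.4, 69.0 and 73.0 CPM in *Appl*- and 178, 120 and 142 CPM in Control libraries (-1.04, standard error 0.23, adjusted p = 0.0264). These were the lowest *Appl*- means of the 25 clusters.

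Outside the Kenyon cell-like clusters there were 3 calls. In cluster 18, which was Mi1-like and so matches an optic lobe neuron of the medulla, *ND-39* had 203, 154 and 154 CPM in *Appl*- and 340, 333 and 295 CPM in Control libraries (-0.91, standard error 0.21, adjusted p = 0.0178). In cluster 21 it had 183, 154 and 202 CPM in *Appl*- and 364, 273 and 340 CPM in Control libraries (-0.92, standard error 0.23, adjusted p = 0.0461). In cluster 0, the largest, it had 125, 136 and 148 CPM in *Appl*- and 214, 171 and 215 CPM in Control libraries (-0.59, standard error 0.13, adjusted p = 0.0286). In each of the 5 clusters the genotypes did not overlap. Leaving out single libraries did not change the call in cluster 6. It removed the calls in cluster 0 (without *Appl*- replicate 1, 2 or 3 or Control replicate 3, -0.53 to -0.65), in cluster 9 (without *Appl*- replicate 2 or 3 or Control replicate 1 or 3, -0.88 to -1.07), in cluster 18 (without *Appl*- replicate 2 or 3, -0.81 and -0.85) and in cluster 21 (without any library other than Control replicate 2, -0.81 to -1.001). With DESeq2 the calls in clusters 9 and 21 were lost (-1.04 and -0.91) and cluster 2 was added (-0.56, adjusted p = 0.0274). Once the replicate number entered as a block, *ND-39* was called in 11 clusters, and the genes called in any cluster were 6: *COX5A* and *ND-B17*, a small complex I subunit, higher, and *ND-15*, *ND-23*, *ND-39* and *UQCR-C1* lower. The block raised the calls over all genes too, to 9.52% of 7510 genes higher and 8.8% lower in at least 1 cluster.

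*UQCR-C1*, a core subunit of complex III, was called lower in cluster 6 only, at 207, 180 and 182 CPM in *Appl*- and 278, 236 and 285 CPM in Control libraries (log2 difference -0.50, standard error 0.14, edgeR adjusted p = 0.0415). This call was lost when any library other than Control replicate 2 was left out (-0.44 to -0.56), with DESeq2 (-0.49) and with scaling to total gene counts (-0.47). Over all cells it had 268, 225 and 262 CPM in *Appl*- and 293, 222 and 264 CPM in Control libraries, which overlapped.

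**Figure D3:**
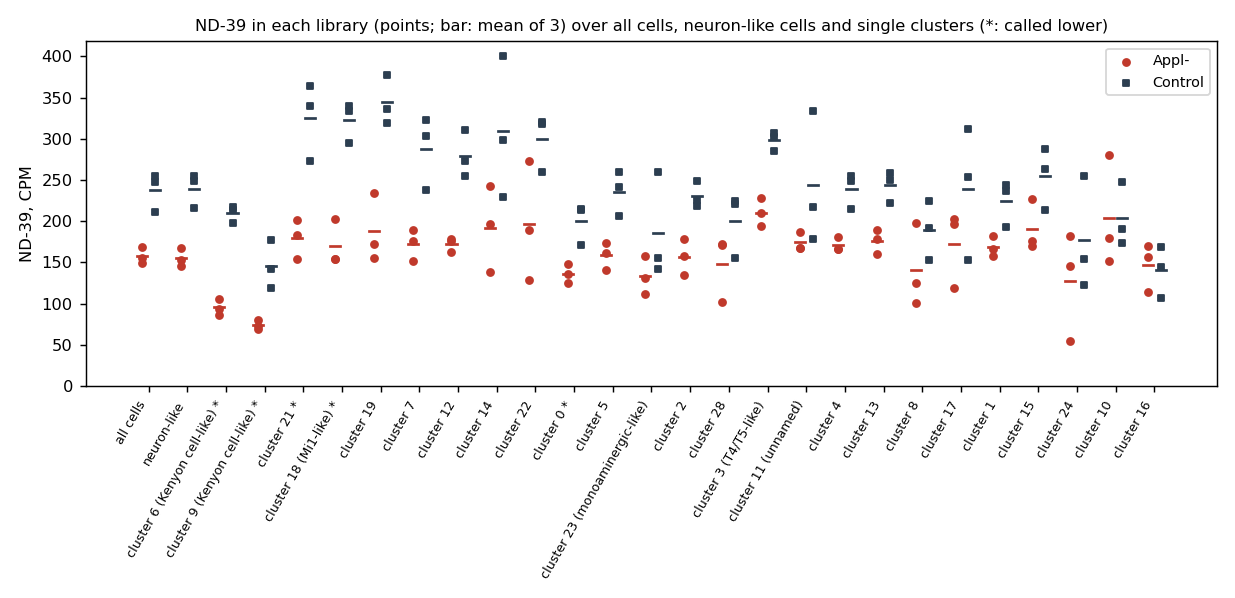
*ND-39* CPM in each library (points) with the mean of 3 libraries (bars), *Appl*- left of Control, over all cells, neuron-like cells and 25 single clusters ordered by their log2 difference. Asterisks mark the 5 clusters where it was called lower; *Appl*- means lay below Control means in nearly all clusters, and clusters 6 and 9, both Kenyon cell-like, had the lowest *Appl*- means.

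After these cluster values had been seen, a test was added of whether the genotype difference in each named neuron class differed from that in the other neuron-like cells. For Kenyon cell-like cells, 1.6% of 8047 genes were called, 0.833% with a more negative difference there. Of 68 respiratory chain genes, 2 were called, both more negative. *ND-39* had 100.1, 85.5 and 91.1 CPM in *Appl*- and 209.5, 189 and 204 CPM in Control Kenyon cell-like cells, a ratio of means of 0.459. In the other neuron-like cells it had 153, 150 and 172 CPM in *Appl*- and 250, 213 and 247 CPM in Control libraries, a ratio of 0.668. The genotypes were separate in both cell groups, and the difference between the log2 differences was -0.56 with a standard error of 0.12 (edgeR, adjusted p = 0.0231). *UQCR-C1* had 196, 172 and 173 CPM in *Appl*- and 275, 218 and 274 CPM in Control Kenyon cell-like cells, a ratio of 0.704, against 251 ± 22.9 and 254.5 ± 31.3 CPM in the other neuron-like cells of *Appl*- and Control libraries (interaction -0.50, standard error 0.11, adjusted p = 0.0267). The *ND-39* call was lost without *Appl*- replicate 2 or 3 or Control replicate 2, with interactions of -0.54, -0.52 and -0.54, and that of *UQCR-C1* was lost without any library other than Control replicate 1, with interactions of -0.45 to -0.55. DESeq2 called both.

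The other classes gave no call among the respiratory chain genes in this added test. For Mi1-like cells 1.11% of 7958 genes were called, for T4/T5-like cells 0.609% of 8045 and for monoaminergic-like cells 0.342% of 7898. In each, 0 respiratory chain genes were called by edgeR. At an unadjusted p below 0.05 there were 8 of 65 in Mi1-like, 4 of 67 in T4/T5-like and 1 of 65 in monoaminergic-like cells, against 7.21%, 7.32% and 4.77% of all genes.

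The second question was how the respiratory chain genes are distributed among cell types. Clusters were built without these genes, without the mitochondrially encoded and other respiratory chain genes and without the tricarboxylic acid cycle genes. Across the 24 neuron-like clusters, the share of gene UMIs held by the 81 genes differed by a factor of 1.95. It was lowest in cluster 9, Kenyon cell-like, at 1.11 ± 0.127%, followed by cluster 16 at 1.34 ± 0.143% and cluster 0 at 1.37 ± 0.149%. It was highest in cluster 14 at 2.15 ± 0.212%, after cluster 7 at 2.00 ± 0.267% and cluster 21 at 1.99 ± 0.272% (SD, n = 6 libraries). The lowest and the highest clusters were apart by far more than these spreads. Cluster 9 lay below its nearest neighbour by more than 1 SD, while the 3 highest clusters lay within 1 SD of each other. The ratio of the highest to the lowest cluster was 2.10 for complex I, 2.09 for complex II, 1.74 for complex III, 2.07 for complex IV and 1.81 for complex V.

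The complexes kept step across clusters. Between pairs of complexes, the mean shares correlated at Pearson's r of 0.823 to 0.974 over the 24 clusters, which share libraries and a common total. The share of mitochondrially encoded UMIs did not follow them closely (r = 0.306, Spearman's rho = 0.196), and nor did the median UMIs per cell (r = 0.029, rho = 0.217). Among genes that are not paralogs, the spread over clusters was smallest for *UQCR-6.4*, a small complex III subunit, which ran from 198 to 348 CPM (coefficient of variation 12%), followed by *ND-B12* (12.9%) and *ATPsynD* (13%). It was largest for the scarce *ND-MNLL* (40.4%) and *Sdhaf3* (40.1%), and next for *ND-B14.5A* (27.6%), which ran from 66.0 to 224 CPM. *ND-51*, the subunit that binds NADH, ran from 119 to 350 CPM (27.3%), with cluster 9 lowest and cluster 14 highest. Over the 68 genes for which it was computed, the largest was that of the paralog *ATPsynCF6L* (131%, from 0 to 23.0 CPM).

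**Figure D4:**
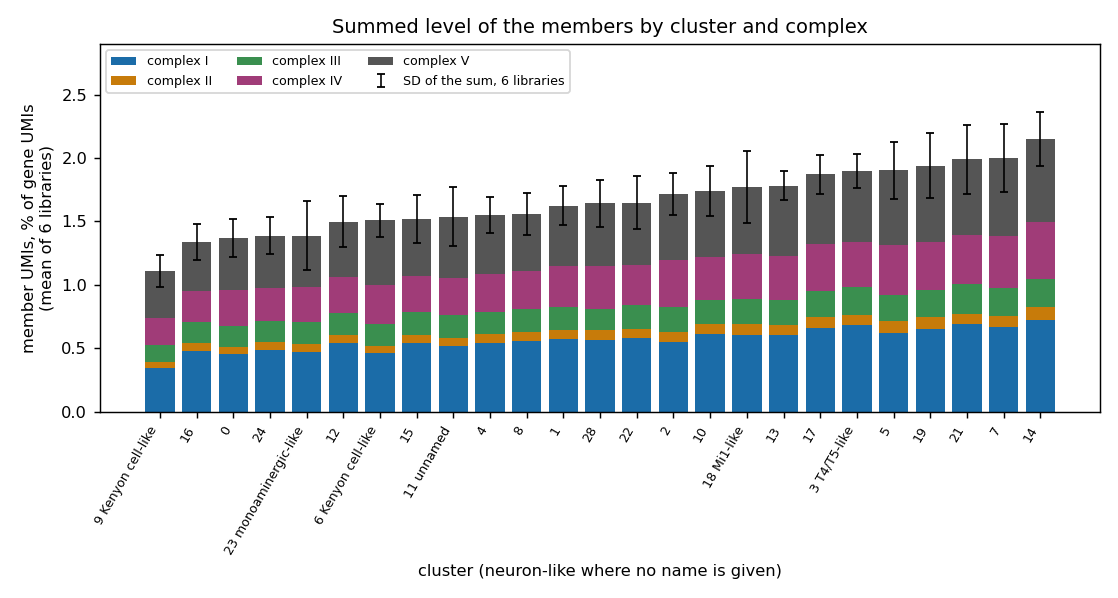
Share of gene UMIs held by the 81 respiratory chain genes in each of 25 clusters, as the mean of 6 libraries, stacked by complex, with the SD of the sum. Clusters run from 1.11% in cluster 9 to 2.15% in cluster 14, and each complex contributes a similar part throughout.

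Named neuron classes were then compared with the remaining neuron-like cells of the same libraries. Because the respiratory chain genes are abundant, they were measured more precisely than most genes. Their median standard error was 0.06, 0.08, 0.11 and 0.15 in the Kenyon cell-like, T4/T5-like, Mi1-like and monoaminergic-like comparisons, beside 0.14, 0.21, 0.30 and 0.36 for all genes tested. A share called above the background is therefore also what better-measured genes would give, and the sizes are given beside the counts. The 4 comparisons share most of their cells and are set side by side without a test between them.

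The Kenyon cell-like class (1667 cells) was defined by *ey* (447 against 27.9 CPM in the other neuron-like cells) and *Dop1R2* (785 against 67.6 CPM), and 9 of the 10 listed Kenyon cell markers were higher in it, *Dop2R* being the exception. Its cells were deeper, with a median of 4384 UMIs against 2582. In this comparison 43.4% of 8047 genes were called, 19.5% higher and 23.9% lower. Of 68 respiratory chain genes, 1 (the scarce paralog *ND-51L2*) was called higher and 17 (25%) lower, near the background, with a median log2 difference of -0.17 beside -0.05 for all genes. The calls were unevenly spread, with 14 of 35 genes lower in complex I, 2 of 6 in complex II, 1 of 12 in complex V and 0 in complexes III and IV by edgeR, where 2 of 7 and 4 of 8 genes had an unadjusted p below 0.05, against 56.1% of all genes. The 81 genes held 1.41 ± 0.130% of gene UMIs, against 1.69 ± 0.169% in the other neuron-like cells, but 68.0 ± 8.31 UMIs per cell, against 54.98 ± 8.90 (SD, n = 6 libraries).

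*ND-MWFE*, a small membrane subunit of complex I, fell most among the abundant genes. It had 153, 114 and 118 CPM in Kenyon cell-like cells of the *Appl*- libraries and 189, 111 and 131 CPM in those of the Control libraries, against 266, 219 and 239 CPM and 301.5, 230 and 264 CPM in the other neuron-like cells of the same libraries. It was lower in 6 of 6 libraries (log2 difference -0.84, standard error 0.07, edgeR adjusted p = 1.3e-07). *ND-B14.5B*, another small membrane subunit, had 108 ± 16.3 against 193 ± 18.7 CPM (-0.78, adjusted p = 1.5e-07). *SdhA*, the catalytic flavoprotein of complex II that oxidises succinate, had 102 ± 8.98 against 174 ± 8.26 CPM (-0.70, adjusted p = 8.7e-07), a call lost after thinning to 500 UMIs (-0.35). Its partner *SdhB* had 120 ± 15.05 against 177 ± 22.04 CPM (-0.49), while the membrane anchors *SdhC* and *SdhD* were not called, at -0.003 and -0.09. *ND-24*, a core iron-sulfur subunit next to the NADH site, had 56.05 ± 7.94 against 88.5 ± 7.92 CPM (-0.61). Each of these was lower in 6 of 6 libraries where called.

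Paralogs were at the ends of this comparison, at very low levels. *ND-51L2* had 2.53 ± 1.28 CPM in Kenyon cell-like cells, against 0.362 ± 0.270 CPM, and was called higher (log2 difference 2.70, standard error 0.52, edgeR adjusted p = 0.00061), although it was 0 in Kenyon cell-like cells of Control replicate 2. It had too few counts for a test over all cells or in any other class. It thus passed the filter on low counts through the class where it was high, and its call is no separate support. It lies within *Trpm*, a cation channel gene that was itself higher there (1.41), so reads of the host gene may be part of its count, which was not tested. *ATPsynCF6L* had 1.07 ± 1.16 against 3.36 ± 0.990 CPM and was called lower (-1.60, adjusted p = 0.0152).

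The T4/T5-like class (1252 cells) resembles the optic lobe neurons that detect motion. It was defined by *SoxN* (3977 against 516 CPM), *acj6* (1400 against 142 CPM) and *TfAP-2* (124 against 35.4 CPM). With *grn*, 4 of the 8 listed markers were higher in it, while *bi*, *dac*, *Wnt4* and *Wnt10* were lower, *Wnt4* at 12.2 against 64.96 CPM. Its cells were shallower, with a median of 1998 UMIs against 2716. Of 8045 genes, 28.1% were called, 10.7% higher and 17.4% lower. Of 67 respiratory chain genes, 19 (28.4%) were called higher and 0 lower, with a median log2 difference of 0.19 beside -0.05 for all genes. Complex I held 17 of the 19 among its 34 tested genes, and the others were *SdhD* and *UQCR-11*. In complexes IV and V 0 genes were called (edgeR), with 2 of 8 and 6 of 12 at an unadjusted p below 0.05, against 40.3% of all genes. The 81 genes held 1.90 ± 0.133% of gene UMIs against 1.65 ± 0.162%, yet 45.98 ± 10.8 UMIs per cell against 56.3 ± 8.75.

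*ND-B16.6*, the fly relative of mammalian NDUFA13, rose most. It had 319, 283 and 251 CPM in T4/T5-like cells of the *Appl*- libraries and 296, 283 and 298 CPM in those of the Control libraries, against 198, 177.5 and 188 CPM and 230, 180 and 199 CPM in the other neuron-like cells. The lowest T4/T5-like value was above the highest of the others (log2 difference 0.59, standard error 0.07, edgeR adjusted p = 8.4e-08). *ND-B22* had 372 ± 54.1 against 256 ± 23.8 CPM (0.58), and *ND-42* had 133 ± 17.2 against 93.7 ± 14.8 CPM (0.54). *ND-18*, a subunit of the electron-input arm, had 179 ± 32.0 against 122 ± 18.5 CPM (0.57), a call lost after thinning (0.31). *SdhD* had 246 ± 14.9 against 171 ± 14.3 CPM (0.55, adjusted p = 6.8e-07), while *SdhA*, *SdhB* and *SdhC* were at -0.16, -0.02 and -0.11 and were not called. All 5 called genes named here were higher in 6 of 6 libraries.

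The Mi1-like class (389 cells) was defined by *bsh* (361 against 7.33 CPM) and *hth* (2999 against 721 CPM). With *ap*, 3 of the 5 listed markers were higher in it, while *Lim3* (16.8 against 95.9 CPM) and *bab2* (2.42 against 61.2 CPM) were lower. Its cells had a median of 3824 UMIs against 2651. Of 7958 genes, 23.2% were called, 8.16% higher and 15% lower. Of 65 respiratory chain genes, 13 (20%) were called higher and 0 lower, with a median log2 difference of 0.17 beside -0.11 for all genes. There were 8 in complex I, 2 in complex II, 1 in complex III, 2 in complex V and 0 in complex IV by edgeR, where 2 of 7 had an unadjusted p below 0.05, against 33.9% of all genes. The 81 genes held 1.77 ± 0.282% of gene UMIs against 1.66 ± 0.157% in the other neuron-like cells, which overlapped. *SdhD* had 280, 288 and 264 CPM in Mi1-like cells of the *Appl*- libraries and 351, 207 and 275 CPM in those of the Control libraries, against 166, 155.5 and 165 CPM and 184, 148 and 175 CPM in the other neuron-like cells (log2 difference 0.76, standard error 0.10, edgeR adjusted p = 2.1e-07), higher in 6 of 6 libraries. *Sdhaf3* had 27.6 ± 6.37 against 15.2 ± 1.57 CPM (0.82, adjusted p = 0.0235), a call lost without *Appl*- replicate 3 (0.77) or Control replicate 3 (0.70). *ND-51* had 274 ± 50.2 against 192 ± 23.2 CPM (0.53), and *ND-B14.5A* had 192 ± 49.5 against 134 ± 11.1 CPM (0.53). The paralog *ATPsynCF6L* had 11.1 ± 12.5 against 3.02 ± 0.938 CPM (1.74, adjusted p = 0.0265), higher in 4 of 6 libraries and not called with DESeq2 (1.45) or without *Appl*- replicate 1 (1.22) or Control replicate 2 (1.24), and it lies within *Con*, a cell adhesion gene at 1.90 in the same comparison.

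Most Mi1-like calls were lost when cells were thinned. Thinned sets also hold fewer counts, and what removed the calls was not tested. With every cell thinned to 500 UMIs, 1 gene was called higher (*SdhD*) and 1 lower (*ATPsynF*), and *ND-51* was at -0.38. The median of all genes then moved to -0.43 and that of the respiratory chain genes to -0.17, a distance of 0.26 beside the 0.27 without thinning. After thinning, 24 genes were called in Kenyon cell-like cells, all lower, and 12 of them were among the 18 called without it. They included *COX5A*, *COX5B* and *COX7C* of complex IV, *UQCR-11* of complex III and *ATPsynF* of complex V, beside 18 of 33 genes of complex I. The background was then 16.8% of 6078 genes lower. In T4/T5-like cells 19 were called higher after thinning, 15 of them also without it, against 5.21% of 6280 genes, and 16 of the 19 were in complex I.

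The monoaminergic-like class (308 cells) matches neurons that release dopamine, serotonin or related amines. It was defined by *Vmat*, the vesicular transporter of these amines (12669 against 64.1 CPM). Also higher in it were *ple*, the tyrosine hydroxylase (3542 against 6.73 CPM), and *DAT*, the dopamine transporter (2281 against 12.7 CPM). *SerT*, the serotonin transporter, had 636 and 376 CPM in *Appl*- replicates 1 and 2 and was at 0 in the class in *Appl*- replicate 3 and all Control libraries, so this marker came from *Appl*- libraries alone, and its part in the results was not tested. All 7 listed markers had a higher mean in the class, *Tbh* only slightly (45.1 against 42.1 CPM). *Tdc2* (138 against 4.48 CPM) was uneven, from 0 to 387 CPM over the 6 libraries of the class. The cells of the class were shallower, with a median of 1962 UMIs against 2678. Of 7898 genes, 8.51% were called, 2.54% higher and 5.96% lower. Of 65 respiratory chain genes, 0 were called higher and 20 (30.8%) lower, with a median log2 difference of -0.40 beside -0.10 for all genes and 63 of 65 below 0. The lower genes were 7 of 12 in complex V, 5 of 7 in complex IV, 6 of 34 in complex I and 1 each in complexes II (*SdhA*) and III (*UQCR-C2*). The 81 genes held 1.39 ± 0.272% of gene UMIs against 1.66 ± 0.159%, and 40.96 ± 17.9 UMIs per cell against 55.98 ± 8.65 (SD, n = 6 libraries). The libraries overlapped in both measures.

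The largest called differences there were in complex I. *ND-B14.5A*, an accessory subunit, had 116, 78.8 and 119 CPM in monoaminergic-like cells of the *Appl*- libraries and 87.6, 106 and 19.9 CPM in those of the Control libraries, against 134, 145 and 144 CPM and 162, 128 and 146 CPM in the other neuron-like cells (log2 difference -0.70, edgeR adjusted p = 0.0229). *ND-75*, the largest core subunit, had 82.8, 78.8 and 86.3 CPM and 104, 79.7 and 69.5 CPM in the monoaminergic-like cells of *Appl*- and Control libraries, against 143, 117 and 124 CPM and 150, 112 and 120 CPM in the other neuron-like cells (-0.61, adjusted p = 0.0241). Both were lower in 6 of 6 libraries. *ND-49* (122 ± 34.7 against 188 ± 16.5 CPM, -0.61) was lower in 5 of 6, and *ND-51* (135 ± 47.97 against 204.5 ± 23.8 CPM, -0.60) and *ND-20* (114 ± 32.3 against 178 ± 14.5 CPM, -0.60) in 6 of 6. Among the abundant genes, *ATPsynbeta*, the catalytic subunit of the ATP synthase, had 514 ± 97.2 against 743 ± 96.4 CPM (-0.53, standard error 0.10, adjusted p = 0.00041), and *COX6B* had 518 ± 90.3 against 686 ± 69.5 CPM (-0.41, adjusted p = 0.0088).

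These calls depended on the scaling and on single libraries. With the size factors of DESeq2, the median of all genes moved to 0.01 and that of the respiratory chain genes to -0.29, so their distance hardly changed (-0.30 in both scalings), but 2 genes were called (*ATPsynO* and *ATPsynbeta*), and 1 with DESeq2 itself (*ATPsynbeta*). Over all genes the split was then 240 higher and 286 lower, beside 201 and 471 with TMM. Among the genes named, *ND-B14.5A* was lost without *Appl*- replicate 2 (-0.66) or Control replicate 1 or 3 (-0.61 and -0.53), *ND-75* without *Appl*- replicate 1 or 2 or Control replicate 1 or 3 (-0.57 to -0.62), *ND-49* without *Appl*- replicate 1 or Control replicate 2 or 3 (-0.52 to -0.55), *ND-51* without Control replicate 2 (-0.47) and *ND-20* without *Appl*- replicate 3 or Control replicate 2 or 3 (-0.51 to -0.55). The count was 11 without *Appl*- replicate 2 and 12 without Control replicate 2 or 3.

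**Figure D5:**
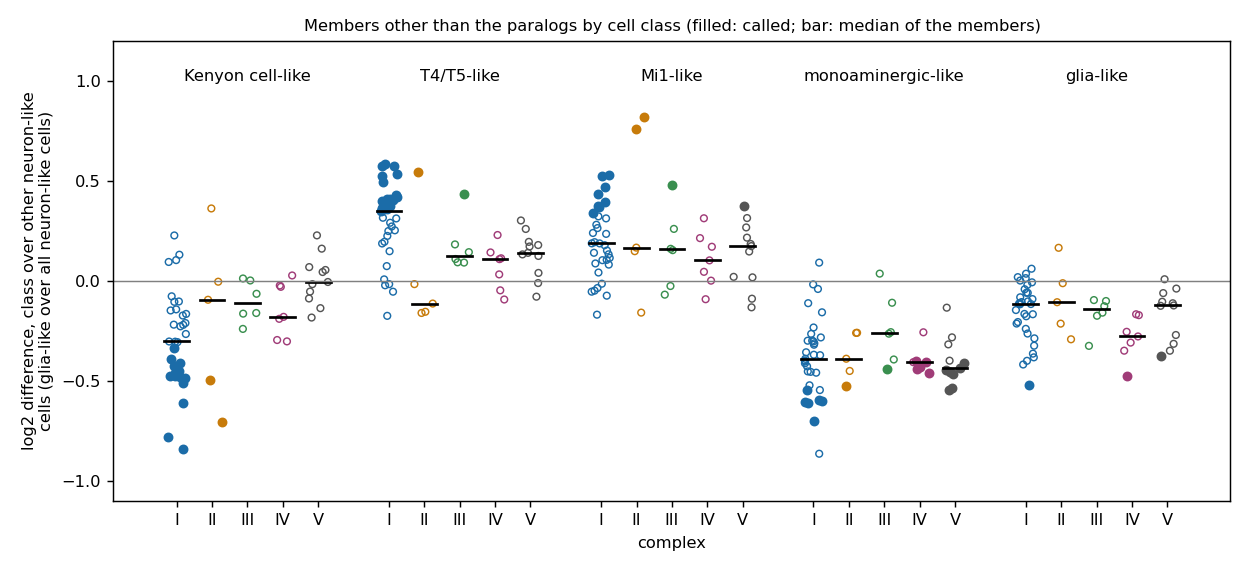
Log2 difference of each tested gene that is not a paralog, by complex, in the Kenyon cell-like, T4/T5-like, Mi1-like and monoaminergic-like classes over the other neuron-like cells and in glia-like over neuron-like cells. Filled points were called and bars are medians; in complex I the points lie mostly below 0 in Kenyon cell-like and mostly above 0 in T4/T5-like cells, and in monoaminergic-like cells nearly all points lie below 0.

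Most genes called in Kenyon cell-like and T4/T5-like cells were in complex I, the largest complex. In complex I, 11 genes were called both lower in Kenyon cell-like and higher in T4/T5-like cells: *ND-18*, *ND-19*, *ND-20*, *ND-23*, *ND-24*, *ND-39*, *ND-51*, *ND-ASHI*, *ND-B14.5A*, *ND-B17* and *ND-B17.2*. They were 16.4% of the 67 respiratory chain genes tested in both comparisons, beside 4.43% of all 7828 genes, and each comparison has the cells of the other class in its remainder. After thinning 11 genes were again called in both, of which 6 were the same (*ND-19*, *ND-23*, *ND-24*, *ND-51*, *ND-ASHI* and *ND-B17.2*). Complex I has 7 nuclear-encoded core subunits, which carry the flavin and iron-sulfur centres or sit beside them and are conserved from bacteria. In Kenyon cell-like cells 4 of these 7 were called lower, with log2 differences of -0.61 for *ND-24*, -0.51 for *ND-20*, -0.48 for *ND-51* and -0.39 for *ND-23*, and in T4/T5-like cells the same 4 were called higher, at 0.49, 0.41, 0.41 and 0.40. Of the other 3, *ND-49* and *ND-30* had -0.31 and -0.26 in Kenyon cell-like and 0.32 and 0.29 in T4/T5-like cells, all with adjusted p below the threshold but too small for a call, and *ND-75* had -0.15 and -0.17, not called in either. After thinning, 6 of the 7 were lower in Kenyon cell-like cells (*ND-49* and *ND-30* added) and 3 higher in T4/T5-like cells (*ND-20* lost). In monoaminergic-like cells 5 of the 7 were lower (*ND-75*, *ND-49*, *ND-51*, *ND-20* and *ND-23*), and in Mi1-like cells 2 were higher (*ND-24* and *ND-51*). After thinning, 2 of the 7 were called lower in monoaminergic-like cells (*ND-49* and *ND-51*) and 0 were called higher in Mi1-like cells. This grouping was chosen after the values were seen. Over all of complex I, 14 of 35 genes were called lower in Kenyon cell-like and 17 of 34 higher in T4/T5-like cells. In Mi1-like cells 8 of 34 were higher, and in monoaminergic-like cells 6 of 34 were lower. Of all genes, 23.9%, 10.7%, 8.16% and 5.96% were called that way in these 4 comparisons. Whether core subunits differ from the rest of complex I was not tested.

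The other lists were read in the same comparisons, whose shares of all genes called are given above. The 13 mitochondrially encoded genes had 0 calls by edgeR in Kenyon cell-like (median -0.15), Mi1-like (median -0.09) and monoaminergic-like cells (median -0.08), with 9, 2 and 0 of 13 at an unadjusted p below 0.05, and 2 were higher in T4/T5-like cells (*mt:ND2* and *mt:ND3*, median of the list 0.20). Of 15 tricarboxylic acid cycle genes, 1 was called higher and 3 lower in Kenyon cell-like cells, 2 higher and 2 lower in T4/T5-like cells, 7 higher and 1 lower in Mi1-like cells, and 0 higher and 1 lower in monoaminergic-like cells. *kdn*, the citrate synthase, was at -0.92 in Kenyon cell-like cells, and *Idh*, an NADP-dependent isocitrate dehydrogenase, was at 1.29 in Kenyon cell-like, -0.64 in T4/T5-like and -0.87 in Mi1-like cells. In Mi1-like cells *Nc73EF*, an oxoglutarate dehydrogenase gene, was at 0.87, *Fum1*, a fumarase gene, at 0.85 and *mAcon1*, the aconitase, at 0.74, while *mAcon1* was at -0.52 in monoaminergic-like cells. Of the respiratory chain genes outside the symbol rule, *RFeSP* and *Cyt-c1* were lower in Kenyon cell-like, *Cyt-c1* was higher in T4/T5-like, *blw* and *ox* were higher in Mi1-like, and *Cyt-c1*, *levy*, *RFeSP*, *sesB* and *blw* were lower in monoaminergic-like cells.

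Glia-like and neuron-like cells were compared last, at Leiden resolution 2. Of 8451 genes, 23.1% were called, 12.5% higher and 10.6% lower in glia-like cells. Of 66 respiratory chain genes, 0 were called higher and 3 lower, fewer than that background, with a median log2 difference of -0.15 beside -0.11 for all genes. *COX6B* had 567, 444 and 301 CPM in glia-like cells of the *Appl*- libraries and 733.5, 412 and 435.5 CPM in those of the Control libraries, against 719, 628 and 658 CPM and 748, 560.5 and 635 CPM in neuron-like cells. It was lower in 6 of 6 libraries (log2 difference -0.47, standard error 0.13, edgeR adjusted p = 0.0135). *ND-18* had 84.7 ± 34.9 against 123 ± 19.0 CPM (-0.52, adjusted p = 0.0429), and *ATPsynbeta* had 558 ± 157 against 712 ± 92.5 CPM (-0.38, adjusted p = 0.0350). The *ND-18* call was lost when any 1 library was left out, and that of *ATPsynbeta* without *Appl*- replicate 1, 2 or 3 or Control replicate 3. With DESeq2 size factors 0 were called (*COX6B* -0.35, adjusted p = 0.069), as with DESeq2 itself, and the median of all genes, shifted up by this scaling, was then 0.01, with 1196 genes higher and 623 lower in place of 1056 and 895. The 81 genes held 1.45 ± 0.257% of gene UMIs in glia-like and 1.66 ± 0.160% in neuron-like cells, which overlapped.

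The remaining lists were read in the same comparison with TMM scaling alone. *Idh* was called higher (1.34), as was *ScsbetaA*, a succinyl-CoA synthetase gene (0.76), and *kdn* was called lower (-0.56), out of 15 tricarboxylic acid cycle genes. These shares of 13.3% higher and 6.67% lower were near the 12.5% and 10.6% of all genes. Of 11 other respiratory chain genes, 0 were higher and 3 lower (*sesB*, the ATP/ADP exchanger, at -0.41, *levy* at -0.40 and *Cyt-c-p*, the somatic cytochrome c, at -0.43). All 13 mitochondrially encoded genes were above 0, with a median of 0.30 and 2 called (*mt:CoI* at 0.36 and *mt:ND3* at 0.34). Of the 66 nuclear-encoded genes 58 lay below 0 with TMM, but 36 with DESeq2 size factors (median -0.03) and 33 with DESeq2 (median -0.01). No test compared the lists with each other.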

How the data were processed

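Brains were dissociated with trypsin and passed through a 10 µm strainer, and 6 libraries were made with droplet 3′ chemistry and sequenced by the authors. The deposited values are raw UMI counts per gene and cell, made by the authors with Cell Ranger 6.0; the genome build and whether strand was used are not given in the sources used here. The tables also list 5571 transposable elements, which held 0.60% to 0.85% of UMIs and were left out of totals and tests. Barcodes with at least 200 genes and no more than 10% mitochondrial UMIs were kept as cells. Kept cells had a median of 2298 to 2870 UMIs in *Appl*- and 2474 to 3178 in Control libraries, and summed gene counts of 9318086 to 20896015 per library. Intervals cover counting error only.

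Cells were scaled to 10000, log transformed, reduced to 30 components over 2000 variable genes (scaled within library, without the genes reported on) and clustered with 20 neighbours at Leiden resolution 1 (scanpy 1.11.5, leidenalg 0.10.2). A cluster was named when at least 3 markers of a type were raised 2-fold and found in 10% of its cells. Neuron-like clusters had at least 3 neuronal markers in 50% of cells, and a neuron class also needed a defining marker in 25% of cells. These thresholds were set after the clusters had been seen. At resolution 1 no cluster met the rule for glia, so glia-like cells, and the neuron-like cells they were set against, were taken from resolution 2. These parameters did not fix the clusters fully. With other numerical settings of the linear algebra library the same steps gave another division, seen before these values and not used here, with a glia-like cluster at resolution 1. The clustering was therefore repeated with random seed 1. Scrublet marked 2 cells, so it had not worked, and no doublets were removed. Pairs of libraries shared 2 to 16 kept barcodes, and no pair of libraries was a duplicate.

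Counts were summed per library and class and tested with edgeR 4.0.16 (TMM, filterByExpr, quasi-likelihood test, Benjamini-Hochberg over all genes tested). Comparisons of cell classes and interactions had library as a term; interactions had no fold limit. CPM of single genes are TMM-scaled, while marker sums and shares use plain totals. DESeq2 1.42.0 and the other settings described in the closing section were alternatives. Same-numbered libraries deviated together (correlations of 0.246, 0.207 and 0.333 over 8511 genes, against -0.237 to 0.0231 for other pairs), so the replicate number was also fitted as a block. Separate libraries came from separate pools of flies as far as the sources say, so p values measure the spread between pools. Gene symbols were looked up in a Release 6 annotation for chromosome arms and overlaps. The genes, marker lists and tests were chosen with earlier results of these data known. Genes were named by rule: those called, the extremes and the highest of each complex, each paralog with its parent, and those of largest and smallest spread over clusters.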

Additional observations from a re-analysis of the deposited data

Results flagged for a closer look

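The genotype difference of 2 genes differed between Kenyon cell-like and other neuron-like cells, by the interaction test across all genes. For *ND-39*, the log2 difference between *Appl*- and Control libraries was more negative in Kenyon cell-like cells by -0.56 (standard error 0.12, edgeR adjusted p = 0.0231), and for *UQCR-C1* by -0.50 (standard error 0.11, edgeR adjusted p = 0.0267). The test was added after the values of single clusters had been seen, and no cause was tested.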

How the results depend on the processing

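Counts here are of respiratory chain genes called. Over all cells 2 were called, 1 with a mitochondrial limit of 5% (*ND-39*), and 0 to 2 when each library was left out. In neuron-like cells 2 were called, 1 with the limit of 5% (*ND-39*), and 1 to 3 when each library was left out. In glia-like against neuron-like cells 3 were called, 0 with DESeq2 or its size factors, 1 with no filter on low counts or with at least 500 genes per cell, 8 after thinning to 500 UMIs, and 1 to 2 when each library was left out. In single clusters 2 were called, 1 with DESeq2 or total gene counts, 4 with no filter on low counts, and 1 to 2 when each library was left out. In Mi1-like cells 13 were called, 2 after thinning, and 11 to 15 when each library was left out. After thinning, *ND-51* in Mi1-like cells had -0.38 in place of 0.53. In monoaminergic-like cells 20 were called, 1 with DESeq2, 2 with its size factors, 17 after thinning, and 11 to 16 when each library was left out. The interaction with the Kenyon cell-like class had 2 calls, and 0 to 3 when each library was left out. The Kenyon cell-like count of 18 ran from 17 to 27 and the T4/T5-like count of 19 from 18 to 24 over all alternatives. The cause of these changes was not tested, except that the thinned sets hold fewer counts by construction.

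The repeat with random seed 1, added after the clusters had been seen to move, gave 43 clusters and none that was glia-like. The counts were then 2 in neuron-like cells, 2 in single clusters (*ND-39* and *UQCR-C1*), 18 in Kenyon cell-like, 21 in T4/T5-like, 15 in Mi1-like and 23 in monoaminergic-like cells, and 2 for the interaction with the Kenyon cell-like class. At resolution 0.5 a glia-like cluster had 52 cells, as few as 5 in a library, and gave no value, so the glia-like results rest on resolution 2 alone.

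When replicate number was added as a block, 3 genes were called over all cells and in neuron-like cells (*ND-42* added), 0 in glia-like cells and 6 in single clusters, and no call made without the block was lost in these comparisons. Over all genes, 404 were then higher and 539 lower in all cells (257 and 249 without the block), 493 and 529 in neuron-like cells (268 and 234) and 40 and 101 in glia-like cells (10 and 15). DESeq2 gave 364 higher and 493 lower in all cells, 15 and 37 in glia-like cells, 1233 and 549 in glia-like over neuron-like cells, 194 and 232 in monoaminergic-like cells and 8 and 8 for the interaction of genotype and glia-like class (61 and 85 with edgeR). With 359 glia-like cells, genotype differences there had a median standard error of 0.32 and were detectable only when large.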
